A study of Helianthus annuus with 15 samples.

Results

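The genes described here reached their highest level in the stem of sunflower (Helianthus annuus). They are the identifiers starting with HannXRQ_Chr whose mean log2(FPKM + 1) in the stem libraries exceeded the mean of root, leaf, flower and axil by at least 2 each. In addition, the lowest Stem library had to lie above the highest of the 12 libraries of the other tissues. FPKM scales the fragments of a gene by its length and by the reads of the library, so levels of different genes can be compared. The rule chose 239 of 57688 such identifiers (0.414%), from a table of 63411 identifiers in all, and its limit of 300 was not reached.

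The study sequenced mRNA from 5 tissues, with 3 libraries each of stem, root, leaf, flower and axil, and 15 in all. Each group is given by its tissue alone: no cultivar, age or treatment stands in the labels, nor whether replicate libraries stem from different plants. P-values therefore reflect how far these libraries differ from each other, which may be technical. The axil is the angle between leaf and stem, where side shoots start. Libraries held 12084975 to 14727843 reads, so that 3 reads on 1000 nt of gene equal 0.204 to 0.248 FPKM. Among the axil libraries, Axil 1 stood apart from Axil 2 and Axil 3 for the members, and the values that rest on it most are also given without it. The leaf libraries differed as well, with medians over the members of 0.309, 1.02 and 0.734 FPKM in Leaf 1 to 3.

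A stem carries water and sugars between root and shoot in its xylem and phloem, and holds the plant upright. Its cambium adds xylem and phloem cells, and xylem vessels and fibres build thick secondary walls of cellulose, xylan and lignin. Around and inside the vascular ring lie cortex, pith and an epidermis with a cuticle, and the young stem is also a site of fast cell elongation. None of the identifiers (0) matched the RefSeq gene table of assembly HanXRQr2.0-SUNRISE, and the deposited table does not pair the members with names. Gene roles and sequences are therefore not given, and the tissue labels could not be checked against marker genes. The Stem values chose the members, so Stem against the other tissues is described without a test. In whole tissues, fewer cells of a type and less RNA per cell cannot be told apart.

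Members spanned a wide range of levels in stem. Their Stem means ran from 4.22 to 1205 FPKM with a median of 29.5, and 39 members reached at least 100 FPKM while 41 stayed under 10. Summed over the members, the level was 16347, 19240 and 19931 FPKM in Stem 1 to 3. The same sum was 533 to 887 FPKM in root, 763 to 1317 in leaf, 1611 to 1937 in flower and 538 to 2015 in axil. As a share of reads, members took 1.93% to 2.26% in the Stem libraries and 0.0678% to 0.253% in the other 12. The margin, which is the Stem mean minus that of the next tissue on the log2(FPKM + 1) scale, had a median of 2.62, and it was under 3 for 168 members and at least 4 for 20.

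**Figure D1:**
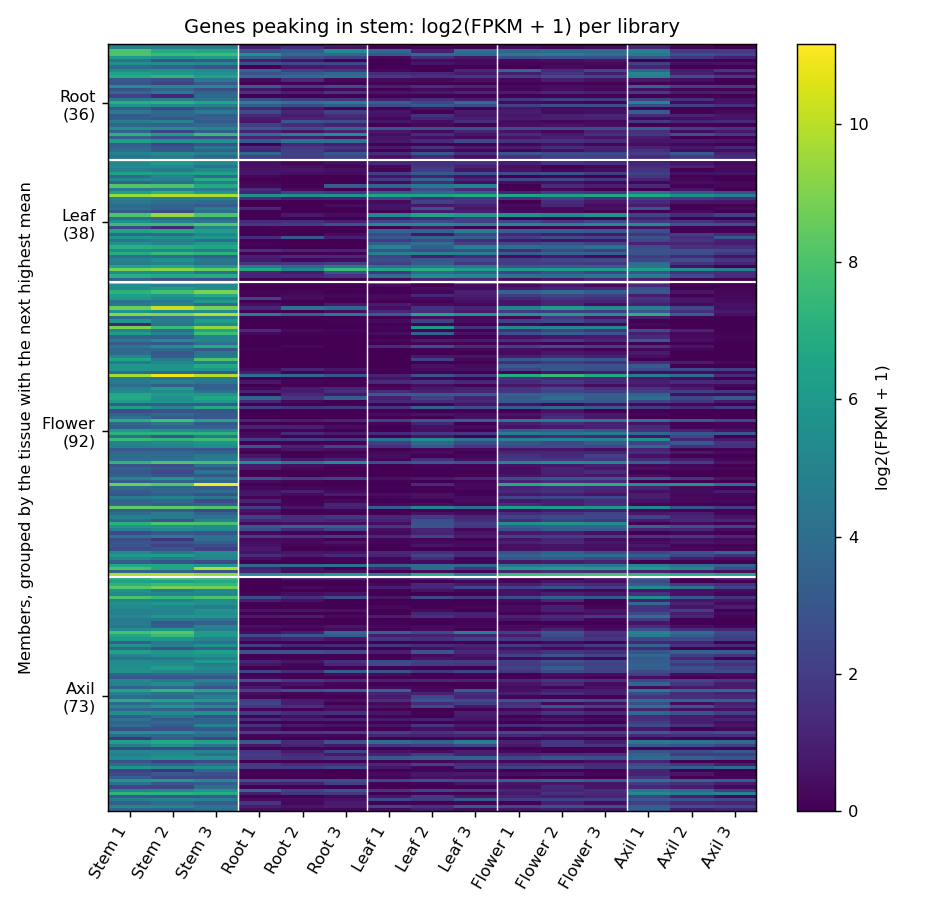
Each row is 1 of the 239 members and each column 1 of the 15 libraries, with colour giving log2(FPKM + 1). Rows are grouped by the tissue with the next highest mean (36 root, 38 leaf, 92 flower, 73 axil), and Axil 1 is brighter than the other axil libraries in many rows.

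The largest margin belonged to HannXRQ_Chr17g0550041 on chromosome 17. It was measured at 122, 215 and 187 FPKM in Stem 1 to 3. Outside the stem its values were 0, 0.664 and 0.782 FPKM in root, 0.388, 1.11 and 3.96 in leaf, 0, 0 and 0.697 in flower and 8.22, 0 and 0.794 in axil. Its margin of 6.07 rests on a gene of only 207 nt, with 358, 547 and 475 reads in the Stem libraries. HannXRQ_Chr16g0498381 on chromosome 16 followed with 87.2, 82.7 and 114 FPKM in stem and a margin of 5.69. Its highest value elsewhere was 5.12 FPKM in Axil 1, while Axil 2 and Axil 3 were listed at 0. In both members Axil 1 held the only value above 5 FPKM outside the stem. Without Axil 1 the margins were 6.13 for HannXRQ_Chr17g0550041, with leaf next, and 6.18 for HannXRQ_Chr16g0498381, with flower next, so the order of this pair turned.

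The members with the highest Stem means had smaller margins than this pair. HannXRQ_Chr01g0006791 on chromosome 1 had the highest Stem mean, at 784, 1898 and 931 FPKM (1205 ± 605, SD, n = 3). It also stood at 118, 186 and 110 FPKM in flower, so its margin was 3.04. HannXRQ_Chr15g0463511 on chromosome 15 was next, at 421, 301 and 2307 FPKM in stem, with Stem 3 far above the others. Without Stem 3 its Stem values are 421 and 301 FPKM, against 115, 144 and 132 in flower. That lead is under 2 on the log2(FPKM + 1) scale, so its place among the members rests on Stem 3. It was listed at 0 in each root library.

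Some members were close to absent elsewhere. In 27 of the 239, each of the 12 other libraries stayed under 1 FPKM, and 62 had a mean under 1 FPKM in each of the 4 other tissues. Of the 27, HannXRQ_Chr14g0428471 on chromosome 14 had the largest margin, 4.64. Its values were 50.99, 22.2 and 35.8 FPKM in stem and at most 0.540 FPKM elsewhere, with 0 in each root library. HannXRQ_Chr03g0083691 came next, at 24.9, 7.89 and 10.1 FPKM in stem and at most 0.515 FPKM outside it. Only HannXRQ_Chr03g0079071 and HannXRQ_Chr17g0555401, named for this after their values were seen, were at 0 in all 12 libraries. The 12 zeros rest on low levels: the first had 85, 39 and 79 reads in the Stem libraries and the second 19, 6 and 60. At the other end, 73 members reached 10 FPKM in some library outside the stem and 6 reached 100.

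Replicate Stem libraries differed more for some members than for others. The ratio of the highest to the lowest Stem library had a median of 1.78 over the members, against 1.45 over the 18587 chromosomal identifiers with a Stem mean at or above the lowest of the members and no Stem value of 0. It exceeded 2 in 83 members and 4 in 18. Of those 83, 37 were highest in Stem 3, 27 in Stem 2 and 19 in Stem 1, so no single library supplied the high values. The largest spread was that of HannXRQ_Chr13g0415971 on chromosome 13, at 1.22, 18.1 and 37.6 FPKM in Stem 1 to 3, which rests on 8, 103 and 213 reads. HannXRQ_Chr03g0093991 on chromosome 3 stood at 4.16, 1.39 and 30.9 FPKM. For HannXRQ_Chr03g0093991 the Stem mean in FPKM is set mainly by Stem 3. In HannXRQ_Chr13g0415971 it was Stem 1 that stood apart, at 1.15 on the log2(FPKM + 1) scale against a mean of 4.76 for the other Stem libraries.

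Because the Stem values made the choice, the members were also chosen without 1 Stem library and read out in it. This asks whether a library that took no part shows the same pattern. Without Stem 1 the rule chose 234 identifiers, of which 192 (82.1%) had Stem 1 above all 12 libraries of the other tissues and at least 2 above each of their means. Over all 57688 chromosomal identifiers, 0.491% met both conditions in Stem 1. Without Stem 2 it chose 264, and 176 (66.7%) met both in Stem 2, against a background of 0.532%. Without Stem 3 it chose 253, and 178 (70.4%) met both in Stem 3, against 0.595%. The 12 other libraries entered both the choice and the readout, so only the Stem side of this comparison is new. The background was not limited to identifiers low in those 12 libraries. It held the chosen identifiers and 9977 at 0 in all libraries, so these shares are not of like sets.

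Most failures in the left-out library were a matter of size. Stem 1 lay above all 12 libraries for 228 of 234, Stem 2 for 247 of 264 and Stem 3 for 247 of 253. The left-out library was lower than the mean of the other Stem libraries by a median of 0.10 for Stem 1, 0.23 for Stem 2 and 0.31 for Stem 3 on the log2(FPKM + 1) scale. Its median lead over the next tissue was 2.59, 2.48 and 2.40, against 2.65, 2.60 and 2.59 for the libraries that chose the members.

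**Figure D2:**
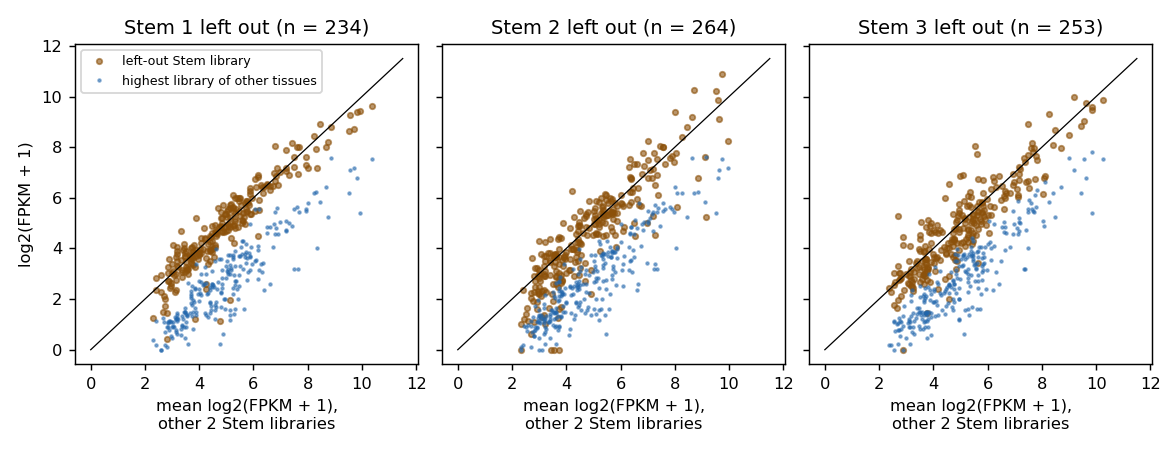
Each panel shows the members chosen without 1 Stem library (234, 264 and 253), with the mean log2(FPKM + 1) of the other Stem libraries on the horizontal axis. Brown circles give the left-out Stem library, blue dots the highest of the 12 libraries of other tissues, and the line marks equality. Brown circles lie along the line and mostly above the blue dots.

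The tissue next to stem was most often flower, as it was among identifiers in general. The next highest mean was that of flower for 92 members (38.5%), axil for 73 (30.5%), leaf for 38 (15.9%) and root for 36 (15.1%). Among the 18615 chromosomal identifiers with a Stem mean at or above the lowest of the members, the highest of these 4 tissues was flower for 31.8%, axil for 27.0%, leaf for 15.3% and root for 25.9%. The axil count rests on Axil 1: without that library it was 39, with 107 for flower, 52 for leaf and 41 for root, so that axil was then the least frequent. In terms of level, the mean reached 1 FPKM for 136 members in flower, 137 in axil, 110 in leaf and 88 in root. All 4 tissues reached that level in 56 members and exactly 1 did in 39, of which 18 were flower. Without Axil 1, 100 members reached it in axil, 51 in all 4 tissues and 45 in exactly 1.

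Axil came next for the pair with the largest margins, described above. HannXRQ_Chr04g0112221 on chromosome 4 led those next to flower, at 697, 1187 and 775 FPKM in stem and 16.1, 34.7 and 18.3 FPKM in flower. It was listed at 0 in all root libraries and in Axil 2 and Axil 3, but at 38.8 FPKM in Axil 1, and leaf was just as uneven, at 17.5, 0.942 and 40.8 FPKM. HannXRQ_Chr11g0349471 followed, at 47.1, 31.2 and 37.2 FPKM in stem and at most 0.708 FPKM in flower. Its highest value outside the stem was 1.57 FPKM, again in Axil 1.

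Next to leaf stood HannXRQ_Chr16g0528331, at 62.5, 43.6 and 34.8 FPKM in stem and 1.02, 0.791 and 2.04 FPKM in leaf. HannXRQ_Chr01g0010881 was at 37.1, 62.2 and 39.3 FPKM in stem, with 1.37, 1.96 and 1.90 FPKM in leaf and nearly the same in flower. Root came next for HannXRQ_Chr09g0273731, at 21.8, 28.6 and 19.9 FPKM in stem and 0.504, 0.239 and 1.76 FPKM in root. HannXRQ_Chr01g0002861 was at 29.5, 22.4 and 23.7 FPKM in stem and 0.993, 1.94 and 0.571 FPKM in root. For these 4 members, the values in the next tissue overlapped with those of other tissues outside the stem.

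The axil libraries differed in their level of the members. Medians over the members were 2.46 FPKM in Axil 1, 0.844 in Axil 2 and 0.397 in Axil 3, against 26.6 to 28.1 FPKM in the Stem libraries. Axil 1 stood at a median of 10.02% of a member's Stem mean, with quartiles of 3.92% and 18.7%, whereas Axil 2 stood at 2.84% and Axil 3 at 1.48%. Flower libraries ranged from 5.63% to 7.91%, leaf libraries from 1.41% to 3.30% and root libraries from 1.07% to 1.62%. Of the 230 members with any value in axil, 189 (82.2%) were highest in Axil 1, against 42.9% of the chromosomal identifiers with at least 1 FPKM in 3 libraries. Axil 1 was over 2 times each other axil library for 133 of 239 members (55.6%), against 6.19% of those identifiers. It was also the highest of the 12 libraries outside the stem for 92 of the 239 members, against 9.68% of those identifiers. Of the 219 members with any value in leaf, 130 were highest in Leaf 2 and 26 in Leaf 1, against 43.0% and 31.9% of those identifiers.

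The same rule was applied to root, leaf and flower for comparison, keeping the 300 genes with the largest margin in each. Axil 1 was the highest axil library for 34.4% of the root genes, 39.8% of the leaf genes and 34.9% of the flower genes with any value in axil. Medians in Axil 1, Axil 2 and Axil 3 were 1.13, 1.19 and 1.05 FPKM for the leaf genes and 0.313, 0.328 and 0.273 FPKM for the flower genes. For the root genes they were 0.227, 0.207 and 0.269 FPKM. Within each of these sets the medians lay close together, unlike the medians of the stem genes. The stem set of 239 was not cut by the limit, so the sets may differ in margin too. What sets Axil 1 apart was not tested.

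**Figure D3:**
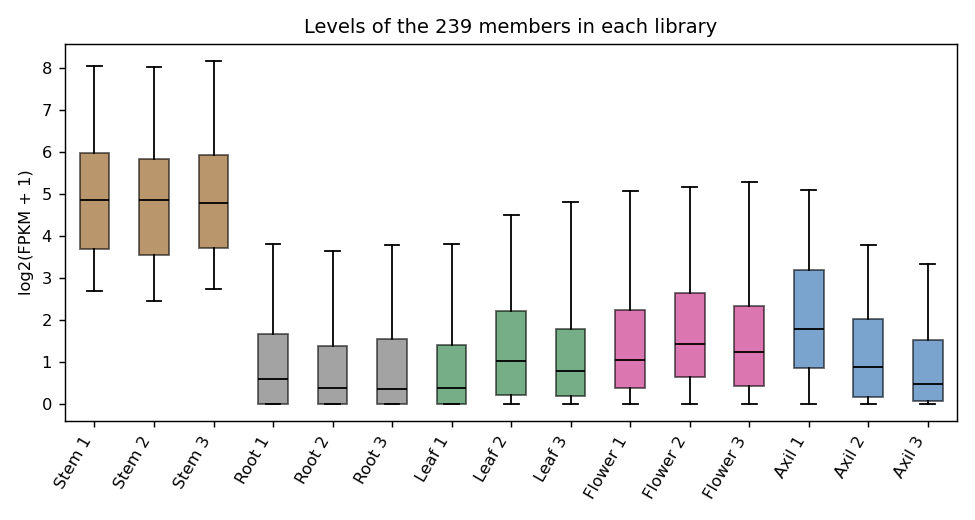
Boxes give the quartiles and median of log2(FPKM + 1) over the 239 members in each of the 15 libraries, and whiskers run to the 5th and 95th percentiles. Among the libraries outside the stem, Axil 1 has the highest median (2.46 FPKM) and Root 3 the lowest (0.293 FPKM).

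Differences among root, leaf, flower and axil played no part in the rule and were tested. The fit used the 12 libraries outside the stem and the 33715 identifiers with at least 1 FPKM in 3 of them. Of the 239 members, 166 passed this filter, 6 of them through libraries of 1 tissue alone. The other 73 were too low outside the stem and were not tested. Shares of members called are therefore given both of all 239 and of the 166 tested, which were selected for a level outside the stem, and the background is the share of all identifiers tested. A gene was called at a limma adjusted p under 0.05 (Benjamini-Hochberg over all identifiers tested) together with a log2 difference of 1 or more in size. The 6 comparisons share libraries, so their counts are given side by side only.

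Root against the shoot tissues came out lower more often than higher. Against flower, 61 members were lower in root, which is 25.5% of all and 36.7% of those tested, with a background of 21.1%. Higher in root were 13 members, 5.44% of all and 7.83% of those tested, with a background of 17.9%. The median difference over the 166 members was -0.76, against 0.00 over all identifiers tested. Against leaf, 37 members were lower in root (15.5% of all, 22.3% of those tested), with a background of 14.6%. Higher were 20 (8.37% and 12.05%), with a background of 16.3%. Here the median over the members was -0.20, against 0.15 over all. It was -0.29, against 0.16, without Leaf 1 and -0.12, against 0.15, without Leaf 2.

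HannXRQ_Chr15g0463511, the gene with the Stem 3 peak, had the largest deficit in root. It was at 0 in each root library and at 115, 144 and 132 FPKM in flower, which is -7.03 ± 0.41 on the log2 scale (SE, n = 3 libraries per tissue; limma adjusted p = 1.06e-07). HannXRQ_Chr06g0175391 on chromosome 6 was at 1.01, 0.397 and 0.0520 FPKM in root and 66.0, 71.1 and 73.2 in flower (-5.63 ± 0.84; limma adjusted p = 0.000148). In both members the root and flower values were far apart, while the Stem values were uneven, at 239, 109 and 903 FPKM in the second. In the other direction, HannXRQ_Chr13g0392521 on chromosome 13 was at 29.4, 16.8 and 25.04 FPKM in root and 0.213, 0.186 and 0.0660 in flower (4.39 ± 1.00; limma adjusted p = 0.00276). HannXRQ_Chr09g0248931 on chromosome 9 was at 16.7, 26.5 and 48.0 FPKM in root and 1.502, 0.772 and 1.97 in flower (3.61 ± 0.41; limma adjusted p = 1.75e-05).

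Between root and leaf, HannXRQ_Chr12g0379361 and HannXRQ_Chr12g0359551, both on chromosome 12, were lowest in root. The first stood at 0, 0.712 and 0.299 FPKM in root and 37.5, 85.5 and 55.3 in leaf (log2 scale -5.45 ± 0.32; limma adjusted p = 1.46e-07). The second stood at 0.0738, 0.0613 and 0.0722 FPKM in root and 27.7, 31.3 and 26.7 in leaf (-4.79 ± 0.22; limma adjusted p = 1.78e-08). Its levels formed a tight series over the tissues, with 117, 179 and 139 FPKM in stem, 8.80, 10.4 and 9.59 in flower and 5.80, 4.79 and 2.42 in axil. The values of stem, leaf, flower and axil did not overlap with one another for this member. Higher in root than in leaf were HannXRQ_Chr09g0248931, at 0.366, 1.65 and 0.543 FPKM in leaf (4.02 ± 0.41; limma adjusted p = 9.99e-06), and HannXRQ_Chr09g0276361. HannXRQ_Chr09g0276361 was at 8.02, 18.3 and 17.3 FPKM in root and 0.670, 1.59 and 4.52 in leaf (2.35 ± 0.40; limma adjusted p = 0.000473).

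**Figure D4:**
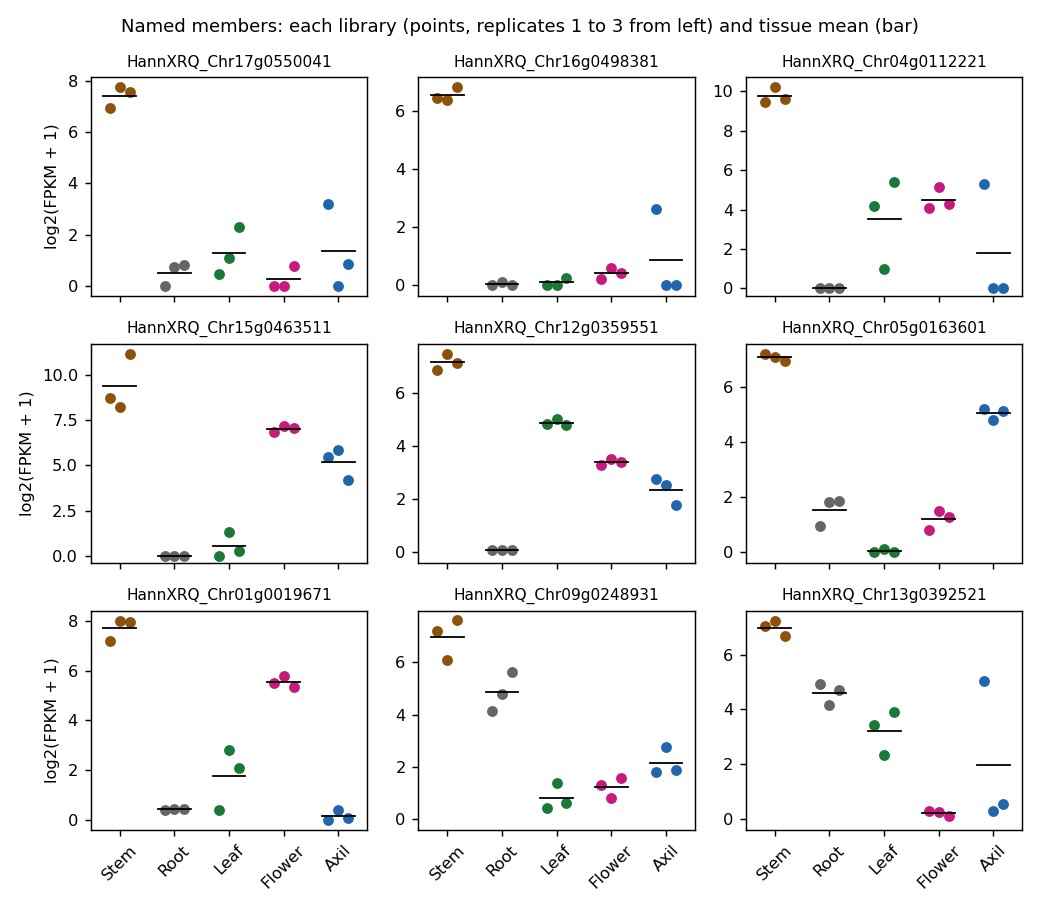
For 9 named members, points give log2(FPKM + 1) in each library, with replicates 1 to 3 from left to right within a tissue, and bars the tissue mean. Each panel has its own vertical scale; Axil 1 stands apart from Axil 2 and Axil 3 in HannXRQ_Chr16g0498381, HannXRQ_Chr04g0112221 and HannXRQ_Chr13g0392521.

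Leaf lay below flower for more members than above it. In leaf 44 members were lower than in flower (18.4% of all, 26.5% of those tested), with a background of 15.8%. Higher were 10 (4.18% and 6.02%), with a background of 11.1%. The median over the members was -0.41, against -0.08 over all identifiers tested. It was -0.26, against -0.10, without Leaf 1 and -0.54, against -0.07, without Leaf 2. HannXRQ_Chr15g0463511 was at 0, 1.51 and 0.180 FPKM in leaf (-6.51 ± 0.41; limma adjusted p = 4.77e-07), far below its flower values. HannXRQ_Chr01g0006791, the member with the highest Stem mean, was at 1.05, 5.81 and 3.01 FPKM in leaf and 118, 186 and 110 in flower (-5.14 ± 0.74; limma adjusted p = 0.000197). On the higher side, HannXRQ_Chr11g0351631 on chromosome 11 was at 11.2, 21.8 and 28.8 FPKM in leaf and 0, 1.54 and 0.902 in flower (3.58 ± 0.75; limma adjusted p = 0.00251). HannXRQ_Chr13g0392521 was at 9.79, 4.05 and 14.1 FPKM in leaf (3.02 ± 1.00; limma adjusted p = 0.0285). That last call was lost with a pseudocount of 5 (limma adjusted p = 0.0897) and without Leaf 1 (limma adjusted p = 0.0744), Leaf 3 (0.0896), Flower 1 (0.0641), Flower 2 (0.0671) or Flower 3 (0.0718).

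Axil exceeded root for many members, but without Axil 1 the median difference was no larger than over all identifiers tested. With all libraries, 44 members were higher in axil than in root (18.4% of all, 26.5% of those tested), with a background of 14%. Lower were 7 (2.93% and 4.22%), with a background of 11.4%. Without Axil 1, 35 of the 166 members tested were higher, with a background of 13.8%, and 18 were lower, with a background of 11.6%. Without Axil 3, 58 were higher and 5 lower, with backgrounds of 14.6% and 11.3%. The median difference over the 166 members was 0.57, against 0.10 over all identifiers tested, and it was 0.05, against 0.08, without Axil 1. Without Axil 3 it was 0.87, against 0.12. HannXRQ_Chr15g0463511 was at 43.5, 58.0 and 17.6 FPKM in axil and 0 in each root library (5.19 ± 0.41; limma adjusted p = 2.31e-06). HannXRQ_Chr06g0175391 was at 68.0, 32.7 and 5.23 FPKM in axil (4.09 ± 0.84; limma adjusted p = 0.00235), all above its root values. Lower in axil was HannXRQ_Chr09g0276361, at 0.586, 0.658 and 0.498 FPKM in axil and 8.02, 18.3 and 17.3 in root (-3.22 ± 0.40; limma adjusted p = 6.85e-05). HannXRQ_Chr10g0295351 on chromosome 10 was at 10.7, 2.86 and 0.517 FPKM in axil and 43.4, 22.0 and 43.8 in root (-3.13 ± 0.57; limma adjusted p = 0.00110).

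Between axil and leaf, the shares called lay near or below the background over all 239 members, of which 73 were not tested. Over the 166 tested, the share higher in axil lay above the background and the share lower in axil near it. In axil 26 were higher (10.9% of all, 15.7% of those tested), with a background of 10.5%. Lower were 14 (5.86% and 8.43%), with a background of 7.98%. Without Axil 1 the order turned among the members, with 18 higher and 24 lower, but not over all identifiers, where 11% were higher and 8.39% lower. The lower count was 9 without Axil 2 (background 7.58%), 9 without Axil 3 (7.29%) and 8 without Leaf 3 (8.59%). The higher count was 40 of the 166 tested without Axil 3, with a background of 10.3%. Scaling also moved the balance: of the members called, 65.0% were higher in axil on the deposited scale, 56.1% with quantile normalization and 51.4% with median-of-ratios scaling. Over all identifiers called, the same shares were 56.8%, 46.8% and 40.5%. The median over the members was 0.25, against 0.21 over all identifiers tested, and -0.08, against 0.18, without Axil 1. Without Axil 3 it was 0.52, against 0.23.

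HannXRQ_Chr05g0163601 on chromosome 5 had the largest excess of axil over leaf among called members with at least 5 FPKM in axil and no overlap. It stood at 35.8, 26.6 and 34.1 FPKM in axil and 0, 0.0842 and 0 in leaf, so axil exceeded leaf by 5.003 ± 0.26 (log2, SE; limma adjusted p = 4.23e-07). Its other values were 147, 135 and 121 FPKM in stem, 0.913, 2.54 and 2.59 in root and 0.728, 1.83 and 1.39 in flower, so all 3 axil libraries lay between stem and the rest. HannXRQ_Chr15g0463511 was also higher in axil than in leaf (4.67 ± 0.41; limma adjusted p = 1.23e-05). On the lower side, HannXRQ_Chr12g0379361 was at 3.89, 1.71 and 3.47 FPKM in axil and 37.5, 85.5 and 55.3 in leaf (-3.88 ± 0.32; limma adjusted p = 8.88e-06). HannXRQ_Chr11g0351631 was at 1.41, 0.0941 and 0.187 FPKM in axil and 11.2, 21.8 and 28.8 in leaf (-3.79 ± 0.75; limma adjusted p = 0.00255).

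With all 12 libraries, axil lay below flower for more members than above it, and without Axil 3 it did not. In axil 38 were lower (15.9% of all, 22.9% of those tested), with a background of 13.9%. Higher were 16 (6.69% and 9.64%), with a background of 13.5%. Without Axil 3 the counts were 25 lower and 27 higher, with backgrounds of 12.9% and 13.1%. Without Axil 1 they were 56 lower and 12 higher, with backgrounds of 14.5% and 13.5%. The median over the members was -0.25, against 0.08 over all identifiers tested, -0.57, against 0.06, without Axil 1, and -0.06, against 0.10, without Axil 3. HannXRQ_Chr01g0019671 on chromosome 1 was at 0, 0.309 and 0.0614 FPKM in axil and 43.9, 53.9 and 40.2 in flower (-5.39 ± 0.47; limma adjusted p = 6.91e-06). HannXRQ_Chr05g0143811 on chromosome 5 was at 0.0865, 0 and 0.0460 FPKM in axil and 38.3, 35.4 and 34.4 in flower (-5.15 ± 1.04; limma adjusted p = 0.00204). For this pair all axil libraries were low, Axil 1 included. Higher in axil was HannXRQ_Chr05g0163601 (3.86 ± 0.26; limma adjusted p = 1.27e-06). HannXRQ_Chr01g0017231 on chromosome 1 was also higher, at 22.5, 12.03 and 14.2 FPKM in axil and 0.421, 0.884 and 0.783 in flower (3.31 ± 0.72; limma adjusted p = 0.00299).

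**Figure D5:**
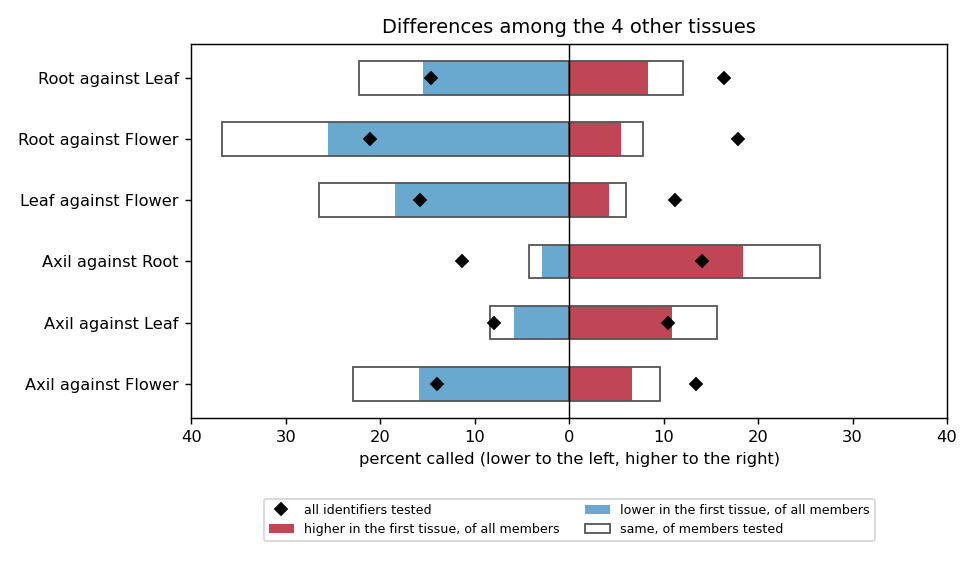
Filled bars give the percent of all 239 members called higher (right) or lower (left) in the first tissue of each comparison, open bars the percent of the 166 members tested, and diamonds the percent of all 33715 identifiers tested. Members lower in root than in flower form the longest bars (25.5% and 36.7%, diamond at 21.1%), and members lower in axil than in root the shortest (2.93% and 4.22%, diamond at 11.4%).

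Gene length and position were then compared with the rest of the table. Length enters FPKM and so bears on the choice: with reads scaled by library total alone, 214 of the 239 members were chosen again. Members had shorter genes: the length implied by their FPKM steps had a median of 1071 nt with quartiles of 634 and 1509, against 1575 nt with quartiles of 987 and 2373 over the 32943 chromosomal identifiers with at least 1 FPKM in 3 libraries. This is a description with no test. By the chromosome in the identifier, 238 members were placed and 1 was not. Chromosome 4 held the most, 20 (8.40% of those placed), against 5.86% of the identifiers expressed at that level, and chromosome 6 the fewest, 7 (2.94%, against 4.10%). Per 1000 identifiers expressed at that level, members ranged from 5.08 on chromosome 3 to 10.97 on chromosome 7.

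Some members were neighbours in the numbering of the identifiers. A distance of at most 3 identifiers to another member was found for 27 members, in 12 groups, of which 10 were pairs. Sequences and coordinates were not used here, so reads shared between near-identical copies cannot be told from reads of each gene. The most abundant pair was HannXRQ_Chr01g0006781 and HannXRQ_Chr01g0006791, with Stem means of 689 and 1205 FPKM. Both were highest in Stem 2, at 1223 and 1898 FPKM, and flower came next for both. HannXRQ_Chr11g0350131 and HannXRQ_Chr11g0350151 on chromosome 11 had Stem means of 161 and 202 FPKM and lengths of 291 and 300 nt. HannXRQ_Chr11g0350141, numbered between them, met the margin but not the condition on overlap, with 22.3, 23.3 and 2.99 FPKM in stem and up to 3.78 FPKM in Root 3. These pairs were named after their values were seen.

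The longest group held 4 members on chromosome 16, and they were not alike. HannXRQ_Chr16g0526181 was at 35.6, 39.95 and 17.9 FPKM in stem and HannXRQ_Chr16g0526191 at 45.8, 47.3 and 22.2, both lowest in Stem 3. HannXRQ_Chr16g0526161 was even over the Stem libraries, at 7.10, 6.94 and 6.85 FPKM, and HannXRQ_Chr16g0526131 stood at 8.10, 3.94 and 5.75. Between them lay identifiers that did not meet the rule. HannXRQ_Chr16g0526141 was highest in leaf (7.37 FPKM, against 3.25 in stem). HannXRQ_Chr16g0526151 and HannXRQ_Chr16g0526171 had their highest mean in stem, but their margins of 1.58 and 0.27 fell short of 2. HannXRQ_Chr16g0526151 was at 5.75, 5.01 and 5.17 FPKM in stem and at most 2.24 FPKM elsewhere, in Axil 1. Directly after the group, HannXRQ_Chr16g0526201 was near level in all tissues, at 14.4 FPKM in stem and 11.8 to 15.4 FPKM in the others.

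At the edge of the rule, members and the identifiers just outside it differed little. HannXRQ_Chr08g0221961 on chromosome 8 and HannXRQ_Chr01g0002991 on chromosome 1 had the smallest margins, both 2.00. The first was at 886, 934 and 701 FPKM in stem and 200.5, 198 and 226 FPKM in flower. Just outside were HannXRQ_Chr16g0507901, whose margin of 1.999 fell short of 2, and HannXRQ_Chr07g0202041, with 1.99. A further 9 identifiers met the margin but overlapped with another tissue. HannXRQ_Chr10g0288151 was among these despite a margin of 4.30: it stood at 143, 50.99 and 72.9 FPKM in stem, and at 54.3 FPKM in Axil 1 against 0.0728 and 0.217 in Axil 2 and Axil 3. Axil 1 was the highest library outside the stem for 4 of the 9.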

How the data were processed

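Libraries were built from poly(A) RNA bound to oligo(dT) beads, with adaptors that carry molecular identifiers, per the labels' protocols. The deposited values are FPKM per library, with the authors' mean per tissue in further columns. The tools included HTSeq 0.6.1, per the submitters' processing notes. The sources used here do not give the aligner, build, annotation or use of molecular identifiers. A further 16 unnamed columns were not used.

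The FPKM of a gene moves in steps of 1 read, which allowed whole reads to be computed (tolerance 1e-06 reads). These gave library totals, and gene lengths, which were whole to 0.05 nt for all (100%) of 28796 genes with reads in every library. Intervals and floors from reads cover counting error only. Pairs of replicates differed by more than sampling noise (chi-square over degrees of freedom, 9.58 to 66.1).

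Values were transformed to log2(FPKM + 1), whose differences understate the change of low genes. Differences were tested with limma 3.58.1 (variances moderated with a trend on mean level; R 4.3.3). Python 3.11.15 with numpy 2.4.6, pandas 2.3.3 and matplotlib 3.10.9 served for the rest, and the procedures were tested on simulated data. The members and lists were chosen with earlier results of these data known. Named members are at most 2 for each of: largest margin among all, per next tissue and among those under 1 FPKM elsewhere; highest Stem level; largest Stem spread; either side of the rule; and largest difference in each direction among called members with at least 5 FPKM and no overlap. The longest run of neighbours is named too. Marker lists for xylem, lignin, cambium and other tissues could not be looked up, as the identifiers were not paired with names, and are not analysed here. Settings varied were the pseudocount, filter, scaling, threshold, libraries in the fit, a replicate block, recovered reads and leaving out each library.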

Additional observations from a re-analysis of the deposited data

How the results depend on the processing

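The choice of members depends on how low values are treated. The rule gave 482 identifiers with a pseudocount of 0.1, 101 with 5, 466 with a margin of 1.5 and 71 with a margin of 3. It gave 232 after quantile normalization, 234 after median-of-ratios scaling and 239 with reads scaled by library total alone, of which 228, 231 and 214 were among the 239 members. Leaving out 1 library gave 221 to 264. Identifiers that passed in a left-out Stem library were 406, 374 and 358 for Stem 1, 2 and 3 with a pseudocount of 0.1, and 85, 75 and 68 with 5. Those numbers follow from the larger and smaller sets chosen, 501, 525 and 549 and 105, 103 and 103.

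Counts of members called higher and lower were, with a pseudocount of 5, 4 and 15 for root against leaf, 4 and 30 for root against flower, 4 and 19 for leaf against flower, 13 and 4 for axil against root, 10 and 8 for axil against leaf, and 7 and 16 for axil against flower. Shares over all identifiers tested were also smaller then, at 8.42% and 8.41% for root against leaf and 9.89% and 11.8% for root against flower. For leaf against flower they were 5.96% and 8.22%, and for axil against root 6.8% and 6.2%. For axil against leaf they were 4.43% and 4.47%, and for axil against flower 6.45% and 7.66%. A filter at 5 FPKM left 80 of the members to test, among 22374 identifiers. It gave 38 lower for root against flower (background 23.8%) and 5 and 26 for leaf against flower (12.8% and 17.3%). Higher in axil were 27 against root (16.4%), 17 against leaf (12%) and 9 against flower (15.8%). A pseudocount of 0.1 gave 11 lower for axil against root, with a background of 12.9%. A larger pseudocount shrinks differences of low genes and a stricter filter tests fewer members, by construction.

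Leaving out 1 library gave 5 to 18 members lower in axil than root, with backgrounds of 11.3% and 11.6% at these ends. Higher than root were 35 to 58 (13.8% and 14.6%). Against leaf, 8 to 24 were lower (8.59% and 8.39%). Higher than leaf were 18 (10.2% without Leaf 1, 11% without Axil 1) to 40 (10.3%). Against flower, 12 to 27 were higher (13.5% and 13.1%) and 25 to 56 lower (12.9% and 14.5%). Axil was the next tissue for 39 to 100 members. The lowest next-tissue count and the highest counts of members lower in axil came without Axil 1. The cause of these shifts was not tested. Of 370 recomputed counts, 332 stayed within 1.5 times the reported one. Some of these could not move, since next-tissue counts do not use the Stem libraries. Of 528 recomputed differences of the named members, 522 kept their direction and their call, and 6 lost the call, all for HannXRQ_Chr13g0392521 between leaf and flower. With adjusted p alone no call could be lost. Leaving out a library of a tissue outside the comparison left the difference itself unchanged. Of 360 recomputed margins of named members, 318 stayed within 1 SD of the Stem libraries and 42 moved further. The count of members at 1 FPKM in axil without Axil 1 was added after seeing the data.

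No pairing by replicate number was seen among the 12 libraries outside the stem. The median correlation between libraries of the same number was -0.0121 (18 pairs), and only 1 of the 12 had its best match there. This cannot tell whether libraries of the same number share a plant or batch. With a replicate block, 61 members were lower in root than flower (background 21.1%). Higher in axil were 42 members against root (13.9%) and 28 against leaf (10.4%), and no count moved by over 1.5 times. Scaling shifted medians over all identifiers tested by over 0.1: with median-of-ratios scaling, root against leaf was 0.02 (members -0.25), leaf against flower 0.03 (members -0.34) and axil against leaf 0.00 (members 0.06). Depth limits the low end, since 8 members had under 10 reads over all 12 libraries outside the stem.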

Other observations

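Identifiers outside the chromosomal class were put through the same 2 conditions. Of the 2229 identifiers numbered like Novel00692, 6 met them. None met them (0) among 3350 ENSRNA identifiers or among those with the prefixes HannXRQ_CP (78) and HannXRQ_MT (66). Novel00692 had the largest margin and was at 14.8, 5.34 and 19.2 FPKM in stem, and its highest value elsewhere was 1.34 FPKM in Leaf 2. It was listed at 0 in every root and axil library, Axil 1 included, so it does not share the Axil 1 values of most stem genes. Novel01257 was at 8.65, 3.57 and 5.86 FPKM in stem and at most 0.364 FPKM elsewhere.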
